A study of Mus musculus with 18 samples.

Results

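The genes described are 10 mouse genes of cell cycle control. They are the inhibitors of cyclin-dependent kinases (CDKs) Cdkn1a, Cdkn1b, Cdkn1c, Cdkn2a, Cdkn2b, Cdkn2c and Cdkn2d, and the growth arrest genes Gadd45a, Plk2 and Btg2. Every probe set whose platform annotation named 1 of these genes and no other was taken. That gave 12 probe sets of 36701 on 3 Affymetrix chip types, for 10 of 15964 genes so named. All 12 lie on MG_U74Av2 and 0 on MG_U74Bv2 and MG_U74Cv2, with a pair each for Cdkn1a and Cdkn1b. The RNAs came from clones of bone marrow stromal cells, the adherent fibroblast-like cells of marrow, that were isolated from adult marrow as CD34+ or CD34- cells, picked as colonies of single cells and grown in DMEM with fetal bovine serum. There were 3 RNAs of CD34+ clones and 3 of CD34- clones, numbered 1 to 3 in each group, with a stated purity of 100% by flow cytometry for CD34. No strain, sex or exact age is given in the sources used here. The labels do not tell whether RNAs of 1 group stem from different clones or cultures, and the design text counts 2 samples. The p-values below may therefore reflect technical spread alone, and CD34 status cannot be told apart from clone if each group was 1 clone.

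CDKs bound to cyclins drive a cell through division, and CDK inhibitors hold them back. The Ink4 proteins (Cdkn2a to Cdkn2d) bind CDK4 and CDK6 and keep cyclin D out, which leaves the retinoblastoma protein able to restrain E2F. The Cip and Kip proteins (Cdkn1a to Cdkn1c) bind whole cyclin and CDK complexes, above all those of CDK2. Gadd45a, Plk2 and Btg2 are growth arrest genes that p53 can induce, and Plk2 and Btg2 are also known to respond quickly to serum or growth factors. In cultured fibroblasts, Cdkn1a and Cdkn2a are known for their rise in senescence.

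Levels are quantile-normalized signals in intensity units. Differences are CD34+ minus CD34- on the log2(signal + 51.5) scale, where the offset damps dim probe sets and makes folds of low signals smaller. A probe set was called where limma's p, adjusted over all 7634 tested probe sets of MG_U74Av2, was under 0.05. A brighter probe set does not mean a more abundant RNA, so levels are compared only within a probe set.

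Cd34 itself read 787.3 to 937.9 in CD34+ and 59.92 to 171.5 in CD34- RNAs at 1 probe set and 826.8 to 921.8 against 85.28 to 202.2 at the other. The first passed the filter on dim signals on the 3 CD34+ arrays alone, and CD34 defined the groups, so no test is given. Of 11 stromal markers 10 were on the chip and 9 were tested. The summed level of the 10 was 40500 to 45400 in CD34+ and 69400 to 79300 in CD34- RNAs. Most of that sum came from the bright probe sets of Col1a1 (mean 19940 against 42620) and Itgb1 (14730 against 19910). Cd44 rose, and Eng, Itgb1, Pdgfra and Col1a1 fell. Nt5e, Vcam1, Pdgfrb and Vim were not called, and the stromal marker Thy1 failed the filter on dim signals on every array. The probe sets of Nt5e (95.22 to 199.4 over the 6 RNAs) and Vim (46.96 to 289.1) were dim. They were above the filter level on 3 and 4 of the 6 arrays. Of 12 blood cell markers 10 were on the chip, 3 were tested, limma called 0 and 0 had an unadjusted p under 0.05, with a summed level of 1820 to 2100 against 1890 to 2080. The pan-leukocyte gene Ptprc read 18.34 to 28.93 over the 6 RNAs and failed the filter on every array. The 3 tested markers were above the filter level on all 6 arrays. Csf1r read 611.5 to 786.1, Elane 340.6 to 602.4 and Cd68 246.6 to 302.6 over the 6 RNAs. The 5 endothelial markers summed to 296 to 465 against 474 to 706, with 1 tested, 0 called by limma and 1 (Pecam1) with an unadjusted p under 0.05. RNA concentrations in the labels were 0.421 to 0.721 µg/µl for CD34+ and 0.989 to 1.38 µg/µl for CD34- RNAs. On MG_U74Av2 the 3' to 5' signal ratio of Gapdh was 0.7 to 0.771 on CD34+ and 0.802 to 0.832 on CD34- arrays. That of actin was 1.03 to 1.09 and 1.1 to 1.2. On MG_U74Bv2 both ratios overlapped, at 0.775 to 0.825 against 0.75 to 0.819 for Gapdh and 1.08 to 1.11 against 1.04 to 1.16 for actin. On MG_U74Cv2 Gapdh overlapped (0.764 to 0.787 against 0.73 to 0.811) and actin did not (0.951 to 1.02 against 1.03). The summed stromal marker level, RNA concentration and, on MG_U74Av2, both ratios thus also separated the groups. The endothelial sums did so only narrowly (up to 465 against 474 and above), and Cdh5, Tek, Kdr and Tie1 failed the filter on dim signals. The part of all these in the differences below was not tested.

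Gadd45a, Plk2 and Cdkn2b were lower in CD34+ clones, and no member was called higher. Of the 10 genes 8 had a tested probe set. The calls were 3 of 9 tested probe sets, beside 6.69% called lower and 14.9% called in either direction among all tested probe sets of the chip. All CD34+ signals were below all CD34- signals at 4 of the 9, beside 15.7% of all tested probe sets, and above at 2, beside 18.8%. The genes were proposed with earlier results of these arrays known, so these counts are a description. In RNA from whole cultures, fewer cells that express a gene and less of its RNA per cell cannot be told apart. The plot of signals by RNA shows all 12 probe sets, and the plot of differences the 9 tested ones.

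**Figure D1:**
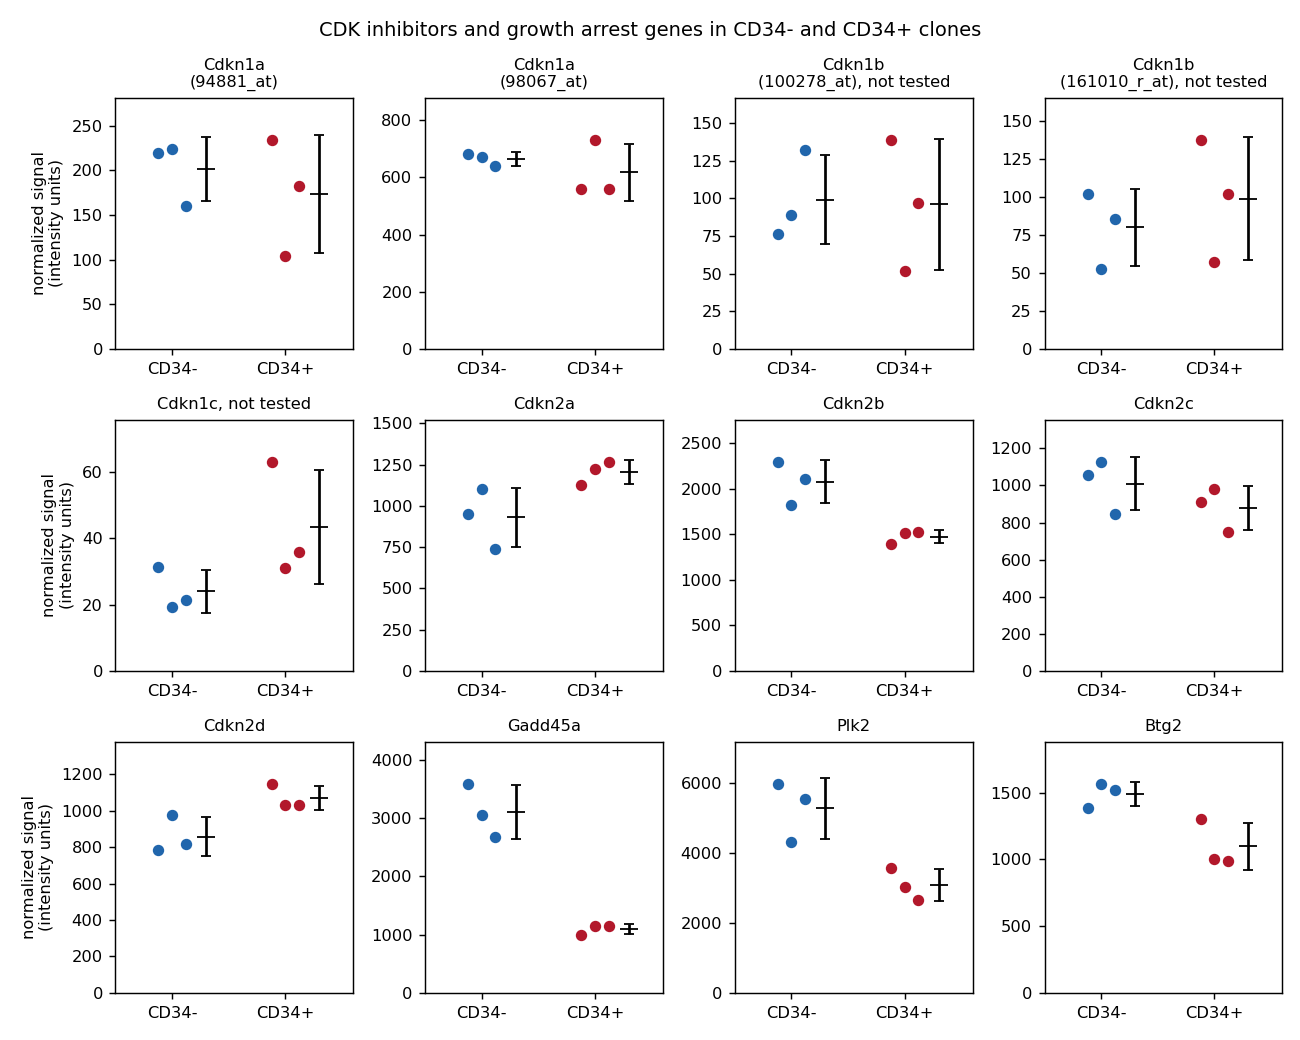
Quantile-normalized signal (intensity units, linear axes from 0, each panel with its own scale) of the 12 probe sets in the 3 CD34- and 3 CD34+ RNAs, with the mean and SD as a bar. The groups stand apart at Gadd45a, at 992.1 to 1150 in CD34+ and 2677 to 3594 in CD34- RNAs, and mix at Cdkn1a, Cdkn1b and Cdkn2c.

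**Figure D2:**
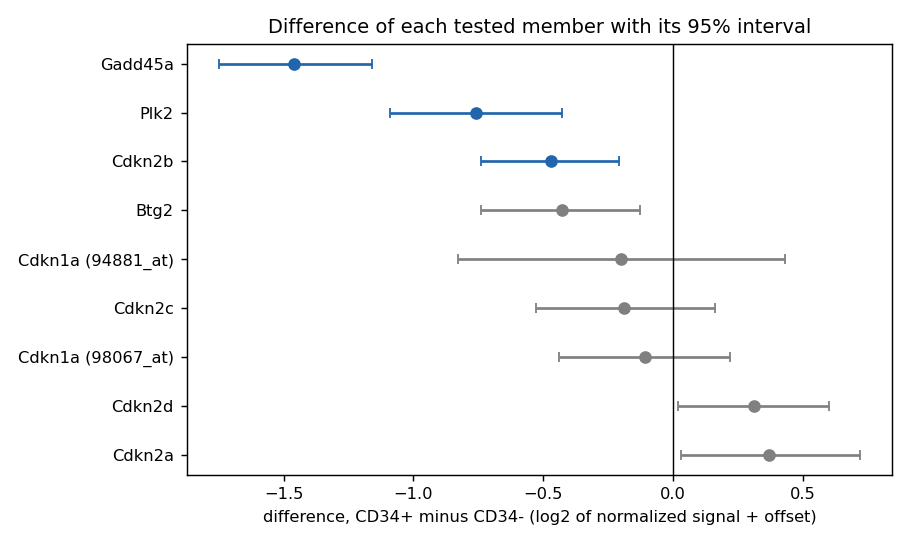
Difference between CD34+ and CD34- clones on the log2(signal + offset) scale for the 9 tested probe sets, each with limma's 95% interval as a bar; coloured points were called and grey points were not. The intervals of both Cdkn1a probe sets and of Cdkn2c include 0.

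The start regions of the 4 genes with all CD34+ signals below are printed to show which short motifs they hold. RefSeq (GRCm38.p6) gave 12 windows of 250 bases before and 50 bases from an annotated start for 9 of the 10 genes, Cdkn1c being the other. The windows are Gadd45a at chr6:67037358-67037657 (minus strand), Plk2 at chr13:110394794-110395093 (plus strand), Cdkn2b at chr4:89310983-89311282 (minus strand) and Btg2 at chr1:134079106-134079405 (minus strand), each 5′ to 3′ on the gene's strand. Capitals mark the full cyclic AMP response element (CRE, TGACGTCA), the CCAAT box (CCAAT) and the p53 decamer, a repeat unit of the p53 response element, on either strand.
Gadd45a: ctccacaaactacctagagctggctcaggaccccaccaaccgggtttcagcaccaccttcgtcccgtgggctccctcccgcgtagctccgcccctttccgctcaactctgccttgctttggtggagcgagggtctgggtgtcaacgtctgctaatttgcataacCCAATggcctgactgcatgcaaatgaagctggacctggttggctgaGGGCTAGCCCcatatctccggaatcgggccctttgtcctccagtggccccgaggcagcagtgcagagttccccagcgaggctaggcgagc
Plk2: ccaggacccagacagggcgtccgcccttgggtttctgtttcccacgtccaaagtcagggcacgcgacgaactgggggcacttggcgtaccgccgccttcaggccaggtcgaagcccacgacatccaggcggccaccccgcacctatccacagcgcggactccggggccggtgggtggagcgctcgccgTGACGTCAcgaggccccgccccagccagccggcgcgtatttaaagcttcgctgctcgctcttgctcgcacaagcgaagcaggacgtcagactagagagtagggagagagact
Cdkn2b: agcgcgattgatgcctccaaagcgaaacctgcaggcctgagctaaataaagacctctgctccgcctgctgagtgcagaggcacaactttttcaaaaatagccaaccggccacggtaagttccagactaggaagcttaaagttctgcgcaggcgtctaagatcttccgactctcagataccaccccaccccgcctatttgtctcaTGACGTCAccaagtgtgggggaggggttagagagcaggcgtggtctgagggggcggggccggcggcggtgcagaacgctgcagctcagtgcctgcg
Btg2: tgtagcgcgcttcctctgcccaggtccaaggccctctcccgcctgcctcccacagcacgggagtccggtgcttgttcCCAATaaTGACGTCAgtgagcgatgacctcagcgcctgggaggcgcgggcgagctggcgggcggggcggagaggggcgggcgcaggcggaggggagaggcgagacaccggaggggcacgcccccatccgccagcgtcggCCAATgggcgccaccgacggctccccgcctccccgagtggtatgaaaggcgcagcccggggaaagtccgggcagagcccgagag
The Sp1 box GGGCGG, not capitalised, was the 1 searched motif present in all 4 windows. It was in 10 of the 12 member windows and in 35.7% of all windows. A full CRE began at -62 from the start of Plk2, at -46 in Cdkn2b and at -166 in Btg2, and was in no other member window. Of 32851 mouse start windows of this length 1.79% held it. Gadd45a had a CCAAT box at -86 and a p53 decamer at -40, motifs that 37.4% and 8.36% of all windows held. The decamer was also found in the first Cdkn1a window, at -73 and -51, and in Cdkn2d at -102. The TATA box TATAAA, the AP-1 site TGANTCA, the FoxO site GTAAACA and the CArG box were in 0 of the 12 member windows and in 13.6%, 7.81%, 3.65% and 1.63% of all windows. A full CRE contains the shorter site TGACG on both strands. A match describes letters and does not show that a factor binds there.

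Gadd45a had the largest difference of the members. It encodes a small stress protein that binds PCNA and CDK1 and takes part in arrest before mitosis. Its signal was 992.1, 1144 and 1150 in CD34+ RNAs 1 to 3 and 3594, 3062 and 2677 in CD34- RNAs 1 to 3 (1096 ± 89.7 against 3111 ± 460, SD, n = 3 each). Each CD34+ RNA was far below the lowest CD34- RNA. The signal was 2.74-fold lower in CD34+ clones (log2 -1.46, 95% interval -1.75 to -1.16, limma adjusted p = 0.00022), the fall of rank 38 among the tested probe sets. The log2 difference was -1.39 between the 1 CD34+ and 1 CD34- array from fluidics station 1, and -1.49 between the 2 and 2 arrays from station 2.

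Plk2 fell as well. It encodes a polo-like kinase of early cell cycle phases with a role in centriole duplication. Its signal was 3572, 3036 and 2656 in CD34+ RNAs and 5992, 4315 and 5561 in CD34- RNAs (3088 ± 460 against 5289 ± 871). The groups did not overlap, and CD34- RNA 2 was the lowest of its group. The signal was 1.70-fold lower in CD34+ clones (log2 -0.76, 95% interval -1.09 to -0.43, limma adjusted p = 0.00872), with a log2 difference of -0.63 on station 1 and -0.83 on station 2.

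Cdkn2b, known as p15Ink4b, is the Ink4 inhibitor that TGF-beta induces in epithelial cells. Its signal was 1389, 1510 and 1520 in CD34+ RNAs and 2294, 1825 and 2100 in CD34- RNAs (1473 ± 72.7 against 2073 ± 236). The groups did not overlap, and the CD34+ RNAs were close together. The signal was 1.39-fold lower in CD34+ clones (log2 -0.47, 95% interval -0.74 to -0.21, limma adjusted p = 0.0259), with log2 differences of -0.58 on station 1 and -0.42 on station 2. The call depended on single RNAs: limma's adjusted p became 0.0914 when CD34+ RNA 1 was left out, 0.0751 for CD34+ RNA 2, 0.0615 for CD34+ RNA 3 and 0.0988 for CD34- RNA 1. It was also lost without a variance trend (adjusted p = 0.053), and the log2 difference stayed between -0.56 and -0.40 in 14 alternatives.

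Btg2 encodes an antiproliferative protein that recruits a deadenylase to messenger RNAs. Its signal was 1299, 1003 and 990.6 in CD34+ RNAs and 1385, 1566 and 1516 in CD34- RNAs (1098 ± 174 against 1489 ± 93.6). The groups did not overlap, but CD34+ RNA 1 came near the lowest CD34- RNA. Btg2 did not pass the test (log2 -0.43, 95% interval -0.74 to -0.13, limma adjusted p = 0.0615). With CD34+ RNA 1 left out the log2 difference was -0.56 and it passed (limma adjusted p = 0.0378).

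The other Ink4 genes did not pass the test. Cdkn2a gives the CDK4 inhibitor p16Ink4a and, from another first exon, the p53 activator p19Arf, and the annotation does not say which of them the probe set reads. Its signal was 1127, 1223 and 1267 in CD34+ RNAs and 949.4, 1099 and 740.4 in CD34- RNAs. No CD34- RNA reached the lowest CD34+ RNA (log2 0.37, 95% interval 0.03 to 0.72, limma adjusted p = 0.139). Cdkn2d, p19Ink4d, read 1148, 1032 and 1031 in CD34+ RNAs and 781.6, 978.1 and 814.5 in CD34- RNAs, again without overlap (log2 0.31, 95% interval 0.02 to 0.60, limma adjusted p = 0.151). For both genes the 95% interval, which is not adjusted for the number of probe sets, left out 0. Cdkn2c, p18Ink4c, read 909.1, 980.4 and 748.9 against 1054, 1128 and 848.4, and its groups overlapped (log2 -0.19, 95% interval -0.53 to 0.16, limma adjusted p = 0.454).

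Cdkn2b and Cdkn2a are neighbours in the genome, with log2 differences of opposite sign. Their ratio within an array does not depend on how that array was scaled, and it was computed from deposited values after the normalized ones had been seen. Cdkn2b over Cdkn2a was 1.24, 1.22 and 1.22 in CD34+ RNAs and 2.42, 1.69 and 2.9 in CD34- RNAs. The CD34+ RNAs were nearly alike and below the CD34- RNAs, which spread widely (log2 of the ratio -0.90 between groups). An exact two-sided permutation test gave p = 0.1, the lowest value possible with 3 and 3 RNAs, or 0.117 after Benjamini-Hochberg adjustment over 7 ratios. The groups already stood apart at Cdkn2b and, in the opposite sense, at Cdkn2a. Separation of the ratio, and with it this p, was therefore largely set in advance, and the ratio is a description.

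Of the Cip and Kip genes only Cdkn1a could be tested. It encodes p21, through which p53 halts the cycle after DNA damage. Its brighter probe set read 560.3, 731.3 and 559.3 in CD34+ RNAs and 682.5, 672.6 and 638.4 in CD34- RNAs (log2 -0.11, 95% interval -0.44 to 0.22, limma adjusted p = 0.661). The dimmer probe set read 234.3, 103.7 and 182.9 against 219.8, 224.4 and 160.1 (log2 -0.20, 95% interval -0.83 to 0.43, limma adjusted p = 0.671). CD34+ RNA 2 was the highest of the 6 RNAs at the brighter probe set and the lowest at the dimmer one, and without it the log2 difference of the dimmer probe set was 0.04 (limma adjusted p = 0.941). The intervals reach from 0.739 to 1.16 times the CD34- level at the brighter probe set and from 0.561 to 1.34 times at the dimmer one. Changes within these intervals are not excluded. Cdkn1b, p27, read 51.88 to 139 at its probe sets in CD34+ RNAs and 52.36 to 132.4 in CD34- RNAs. Cdkn1c, p57, an imprinted gene, read 31.01 to 62.98 and 19.25 to 31.39. Both genes failed the filter on all 6 arrays, the groups overlapped at each probe set, and no fold is given.

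No paralogue of a member passed the test as lower. Of 10 paralogues 9 were tested, of which 3 rose, 0 fell and 6 did not pass (median log2 difference 0.19). Of 11969 genes, each represented by 1 probe set, 4.39% rose and 3.51% fell, and on MG_U74Av2 alone the shares were 8.49% and 6.96%. Plk4, the kinase that starts centriole duplication, read 2036 to 2549 in CD34+ and 821.9 to 991.6 in CD34- RNAs (log2 1.29, limma adjusted p = 0.000334). Plk1, the main polo-like kinase of mitosis, rose by 0.79 on the log2 scale at its brightest probe set (limma adjusted p = 0.00495), while its others differed by 0.43 and 0.36 (limma adjusted p = 0.143 and 0.196). Btg1, an antiproliferative protein like Btg2, rose by 0.45 (limma adjusted p = 0.0295). The Btg1 call was lost in 6 of 14 alternatives (adjusted p 0.0181 to 0.105 over all of them), among them those without CD34+ RNA 1, CD34+ RNA 2, CD34- RNA 1 or CD34- RNA 2 (adjusted p = 0.105, 0.103, 0.103 and 0.064). A Btg1 probe set on MG_U74Bv2, where 1.09% of tested probe sets were called, differed by 0.28 (limma adjusted p = 0.592). Gadd45b and Gadd45g, stress proteins like Gadd45a, differed by 0.18 (limma adjusted p = 0.418) and -0.48 (limma adjusted p = 0.0503), and a dimmer Gadd45b probe set by 0.26 (limma adjusted p = 0.322). Gadd45g read 2079 to 2815 in CD34+ and 3081 to 3812 in CD34- RNAs, without overlap.

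Ratios of Gadd45a, Plk2 and Btg2 to paralogues within arrays were chosen with earlier results of these data known. The groups did not overlap at Gadd45a, Plk2 or Btg2 themselves, so separation of their ratios was largely set in advance. The ratios are a description, and the share of separated ratios among other pairs of probe sets was not computed. Gadd45a over Gadd45b was 0.907, 1.02 and 0.785 in CD34+ RNAs and 3.11, 3.07 and 2.55 in CD34- RNAs. Gadd45a over Gadd45g was 0.362 to 0.552 against 0.694 to 0.993. Plk2 over Plk4 was 1.2 to 1.58 against 5.09 to 6.66. The widest gap between groups was thus that of Plk2 over Plk4, kinases whose own signals differed in opposite senses. Plk2 over Plk1 was 0.907 to 1.07 against 2.37 to 3.95, and Btg2 over Btg1 was 0.347 to 0.447 against 0.661 to 0.78. Plk2 over Plk3 overlapped, at 0.368 to 0.482 against 0.324 to 1.1 (exact two-sided permutation p = 0.4). Each of the other ratios had an exact permutation p of 0.1, adjusted 0.117.

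**Figure D3:**
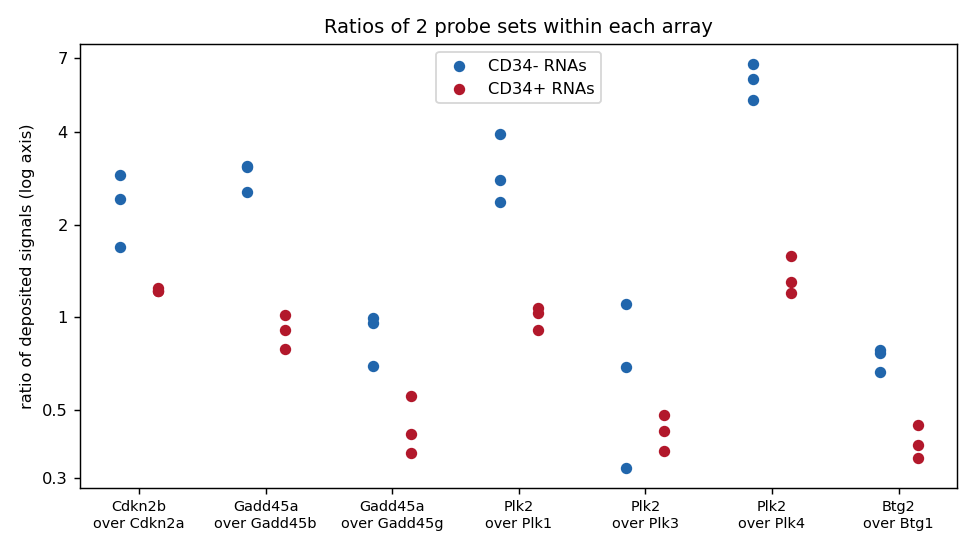
Ratio of 2 probe sets within each MG_U74Av2 array, from deposited signals (log axis), for the 3 CD34- and the 3 CD34+ RNAs. The groups overlap for Plk2 over Plk3 and stand apart for the other 6 ratios. Pairs were chosen with earlier results of these data known.

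Of 18 CDKs, cyclins, pocket proteins and E2F factors, with the replication clamp Pcna counted among them, 16 were tested, 2 rose and 0 fell (median log2 difference 0.15). The share that rose was 12.5%, beside 4.39% of all genes and 8.49% of those on MG_U74Av2. Of all genes 3.51% fell, and 6.96% on MG_U74Av2. With so few genes these counts lie near the shares of all genes. Cdk1, the kinase of mitosis, read 6844 to 7586 against 3770 to 4483 (log2 0.74, limma adjusted p = 0.00146). Ccnd3, a D-type cyclin, rose by 0.35 (limma adjusted p = 0.0419), a call lost in 9 of 14 alternatives and when any 1 of the 6 RNAs was left out (adjusted p 0.0413 to 0.134 over all alternatives). Its probe sets on MG_U74Bv2 and on MG_U74Cv2, where 0.0936% of tested probe sets were called, differed by 0.77 and 0.13 (limma adjusted p = 0.182 and 0.936). Cdk4, which the Ink4 proteins bind, read 7046 to 8133 against 6896 to 7378 and did not pass (log2 0.08, limma adjusted p = 0.562). Its other probe set on MG_U74Av2 read 3528 ± 967 against 2091 ± 1100, overlapped and did not pass either (log2 0.84, limma adjusted p = 0.154).

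Of 20 S phase and mitosis genes, all tested, 10 rose and 0 fell (median log2 difference 0.44). Bub1, a spindle checkpoint kinase, read 801 to 929.8 against 349.3 to 379.8 (log2 1.17, limma adjusted p = 0.000727). Rrm2, a subunit of the enzyme that makes deoxynucleotides, read 1377 to 1620 against 631.8 to 772.3 (log2 1.05, limma adjusted p = 0.00103). The mitotic kinase Aurka and Cdc20, an activator of the anaphase-promoting complex, rose by 0.84 and 0.83. These 4 were among the 5 of the 10 that were called in all 14 alternatives.

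Of 22 genes of the p53 circuit 16 were tested, and limma called 0 (median log2 difference -0.04). At an unadjusted p under 0.05 there were 4: Sesn1, Ddit4 and Rprm with a higher and Trp53inp1 with a lower signal in CD34+ RNAs, named after their values were seen. Such values were common. By limma's unadjusted p, Ddit4 (0.0383) ranked only 2031 among the 7634 tested probe sets of MG_U74Av2. Trp53inp1 (0.0478) ranked 1238 among 7737 on MG_U74Bv2. The count is thus no sign of a shift of these genes. Trp53inp1 was above the filter level on the CD34- arrays alone, and so was tested through the group where it was high. Of the 16 genes 9 were tested on MG_U74Av2 and the others on the chip types where 1.09% and 0.0936% of probe sets were called. Rprm, on MG_U74Bv2, had an unadjusted p of 0.0025 (limma adjusted p = 0.0869), while Cdkn2b, called on MG_U74Av2, had 0.00278 (limma adjusted p = 0.0259). Mdm2, the p53 target that degrades p53, read 819.6 to 1085 against 433.3 to 885.3 (log2 0.42, 95% interval -0.13 to 0.97, limma adjusted p = 0.288), with 0.24 at its probe set on MG_U74Cv2 (limma adjusted p = 0.822). Of 16 regulators of the inhibitors 14 were tested, 3 rose and 0 fell (median 0.14). The share that rose was 21.4%, beside 4.39% of all genes and 8.49% of those on MG_U74Av2. Cks1b, the cofactor with which Skp2 marks p27 for degradation, read 8611 to 10390 against 4295 to 4651 (log2 1.03, limma adjusted p = 0.00022). Id1, an inhibitor of helix-loop-helix factors, rose by 0.89 (limma adjusted p = 0.00414). Ezh2, a Polycomb methyltransferase that silences the Ink4 locus, rose by 0.47 (limma adjusted p = 0.0372), a call lost in 9 of 14 alternatives and on leaving out any RNA but CD34- RNA 3 (adjusted p 0.0238 to 0.147 over all alternatives).

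Of the 6 lists, that of the immediate early genes, which serum and stress induce within minutes, had the median farthest from 0. Of 13, all tested, 9 fell, 1 rose and 3 did not pass (median log2 difference -0.90). Fos, an AP-1 subunit, read 150.9 to 199.3 against 1507 to 3496 (log2 -3.33, limma adjusted p = 0.000128). Klf4, a zinc finger factor that can induce Cdkn1a, read 465.3 to 583.5 against 1325 to 1733 (log2 -1.46, limma adjusted p = 0.000334). The serum response factor target Egr1 fell by 1.35 on the log2 scale (limma adjusted p = 0.00539), and the stress factor Atf3 fell by 1.16 (limma adjusted p = 0.00141), with -0.30 at its other probe set (limma adjusted p = 0.203). The orphan nuclear receptor Nr4a1 rose by 0.65 (limma adjusted p = 0.0399). The Nr4a1 call was lost in 8 of 14 alternatives, among them those without CD34+ RNA 1, CD34+ RNA 3, CD34- RNA 1 or CD34- RNA 3 (adjusted p 0.0392 to 0.132 over all alternatives), and its MG_U74Bv2 probe set differed by -0.46 (limma adjusted p = 0.611). The 8 tested members had a median log2 difference of -0.31, beside 0.02 over all genes, as the plot of gene lists shows.

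**Figure D4:**
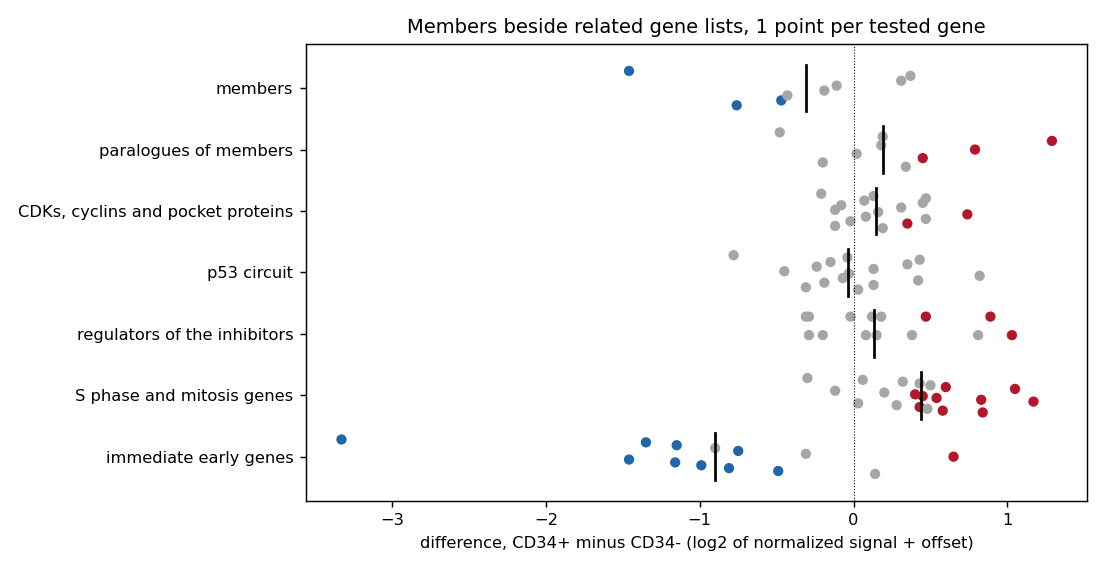
Difference between CD34+ and CD34- clones on the log2(signal + offset) scale, 1 point per tested gene, for the members and the 6 related lists; coloured points were called lower or higher, grey points were not called, and black ticks are medians. Medians run from -0.90 for immediate early genes to 0.44 for S phase and mitosis genes.

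Across 14 alternatives in processing, the adjusted p of Gadd45a ran from 0.000136 to 0.0022 and that of Plk2 from 0.00453 to 0.038. The log2 difference ran from -1.56 to -1.35 for Gadd45a and from -0.90 to -0.66 for Plk2.

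**Figure D5:**
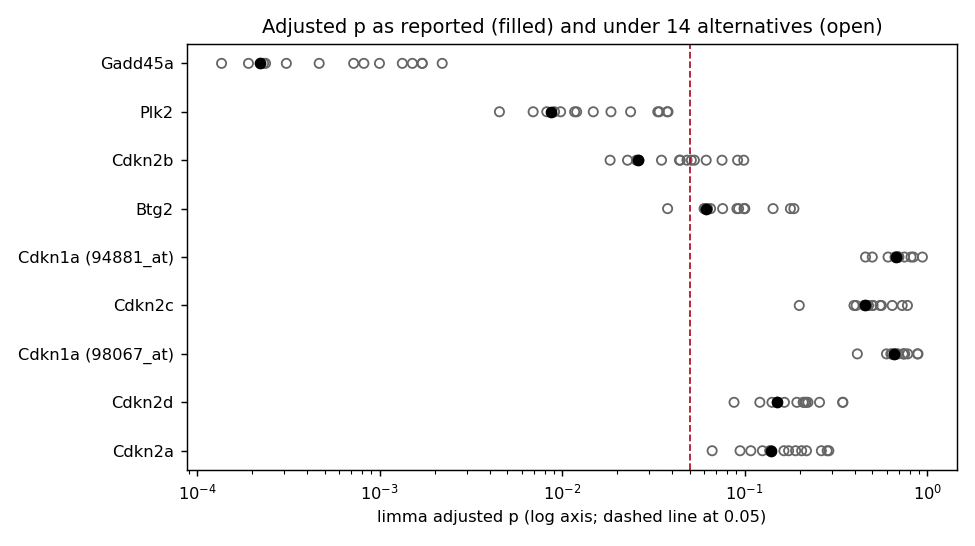
Limma adjusted p (log axis) of the 9 tested probe sets as reported (filled) and under 14 alternatives (open), with a dashed line at 0.05. Gadd45a and Plk2 stay below the line's value, Cdkn2b and Btg2 lie on both sides, and the other probe sets stay above it.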

How the data were processed

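Biotin-labelled total RNA, 6 RNAs in all, was read on 1 array of each of 3 chip types, 18 arrays in all. The deposited values are linear intensities, produced by MAS5 according to the submitters' processing notes; neither its version nor its settings appear in the sources used here, and detection calls were not used. Trimmed means of the deposited CD34+ arrays were 14.1 to 19.6 times those of CD34- arrays on MG_U74Av2, so levels could be compared only after scaling. The gap was wider on MG_U74Bv2 (1479 to 1480 against 26.45 to 32.9) and MG_U74Cv2 (1461 to 1462 against 12.18 to 17.44). On these 2 chip types the CD34+ arrays and CD34- RNA 1 were from fluidics station 1, and CD34- RNAs 2 and 3 from station 2. Fluidics stations were read from the instrument settings (other data, per the file headers).

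Control probe sets (66 on MG_U74Av2) were dropped and arrays quantile normalized within a chip type, and the 20th percentile of normalized values was added before log2. The filter kept probe sets with a deposited value over the 40th percentile of the array on 3 or more of 6 arrays. Each chip type was fitted with limma 3.58.1 in R 4.3.3 (eBayes with an intensity trend, group as the only term, two-sided, Benjamini-Hochberg adjustment within the chip type), tested on simulated data. GEO's platform annotation named probe sets. A list gene was represented by its brightest tested probe set, preferring MG_U74Av2, then MG_U74Bv2, then MG_U74Cv2. Where 5 or fewer genes of a list were called, all are named, otherwise the 4 with the largest difference in each direction; Gadd45b, Gadd45g, Cdk4, Mdm2 and Plk3 were named after their values were seen. Same-numbered RNAs did not deviate together (correlations -0.0493 to 0.0465), so numbers were not used as pairs. Arrays correlated at 0.956 to 0.974 within groups and at 0.931 to 0.947 between them. Alternatives changed the filter, offset, scaling, variance trend and blocks, or left out 1 RNA. Members, lists and tests were chosen with earlier results of these data known. The number of arrays limits the precision.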

Additional observations from a re-analysis of the deposited data

How the results depend on the processing

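Over 14 alternatives, the number of called member probe sets was 3 or 2, and no called member changed direction. It was 2 without a variance trend, with the replicate block and without CD34+ RNA 2, CD34+ RNA 3 or CD34- RNA 1, because Cdkn2b lost its call. Leaving out CD34+ RNA 1 lost Cdkn2b and gained Btg2. Under the replicate block, with numbers that do not pair the RNAs, the adjusted p of Cdkn2b was 0.051, no other member's call changed, and 956 probe sets of the chip were called in place of 1138. A block for the fluidics station gave 986 calls and kept all 3 members (Cdkn2b adjusted p = 0.0439), as did scaling to a common median (0.0443) or trimmed mean (0.0228). Calls over the chip were 698, 623 and 720 without CD34+ RNA 1, 2 or 3 and 722, 894 and 1235 without CD34- RNA 1, 2 or 3; the cause was not tested. Of the 28 called list genes, 17 were called in every alternative, 11 lost the call in at least 1 and 0 changed direction. Without a filter Cdkn1b and Cdkn1c were not called (adjusted p 0.347 to 0.941). Alternatives planned for MG_U74Bv2 and MG_U74Cv2 were not run, since no member probe set lies there. Dim signals, as of Cdkn1b and Cdkn1c, limit what can be seen.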
